A study of Mus musculus with 3 samples.

Results

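Signal transducers and activators of transcription (STATs) and Janus kinases (JAKs) were read in cultures of myeloid-derived suppressor cells (MDSCs), a mixed population of young myeloid cells known for damping T cell responses. The members were the rows of the deposited expression table whose gene symbol was Stat2, Stat3, Stat4, Stat5a, Stat5b, Stat6, Jak1, Jak2 or Jak3. All 9 were found, each as 1 row of the 57561 in the table. The cells were grown from femur marrow for 4 days with the cytokines GM-CSF and IL-6 before their total RNA was sequenced. There were 3 libraries: wild type C57BL/6 (WT), lnc57Rik-/- (lnc57Rik KO) and lncGM1082-/- (lncGM1082 KO), the latter pair labelled with the strain C57BL/6 as well and each lacking a long noncoding RNA. With 1 library per genotype no difference between genotypes could be tested, and no spread between mice or cultures is known. Age, sex, the number of animals per library and the way each gene was disrupted were not given in the sources used here, and the growth protocol names C57BL/6 and lnc57Rik KO mice only.

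A JAK is a tyrosine kinase held on the inner side of a cytokine receptor. When the cytokine binds, the kinases phosphorylate the receptor tails, STAT proteins dock there through their SH2 domains, are phosphorylated in turn, pair up and enter the nucleus, where they bind DNA. GM-CSF acts mainly through Jak2 and the Stat5 proteins, and IL-6 through Jak1, Jak2 and Stat3, so the culture medium itself supplies ligands of this pathway. Stat3 is known for driving the expansion of MDSCs, Stat6 for the response to IL-4 and IL-13, and Stat4 for the response to IL-12. Stat2 acts with Irf9 in the complex that answers type I interferon, and Jak3 works with the common gamma chain, Il2rg. The table measured mRNA, which does not show how much of a protein was phosphorylated.

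The DNA letters that STATs recognise were looked up first, in RefSeq promoter windows on GRCm38.p6, which run from 250 bases before to 50 bases after a gene's start. The 9 members had 12 such windows, since 3 members had 2 starts. The motif of STAT dimers, TTCNNNGAA, was in 0 of the 12 windows and in 8.3% of 32851 windows of all genes, both strands searched. The form with a longer spacer that Stat6 prefers, TTCNNNNGAA, was in 1 of 12 and in 6.95% of all windows. GAAANNGAAA, the core of the element bound by the interferon complex, was in 2 of 12 and in 3.44% of all windows. None of these motifs overlapped another in the stretches printed here. Stat2 and Stat4 held the matches, and are also the members with the largest log2 folds in the lnc57Rik KO library; a link between the letters and the levels was not tested. Their stretches are shown 5′ to 3′ on the gene's strand with the matched letters in capitals, followed by those of 2 genes that STATs are known to switch on, Socs3 and Cish, which serve as readouts of the pathway in the results. The Stat2 stretch lies at chr10:128270248-128270367 on the plus strand, from 250 to 131 bases before the start, and its capitals mark the interferon core on the opposite strand and then the long-spacer motif. The Stat4 stretch, at chr1:52008118-52008177 on the plus strand, lies before an inner start of that gene and its capitals mark the interferon core. The Socs3 stretch, at chr11:117969486-117969545 on the minus strand, and the Cish stretch, at chr9:107296655-107296682 on the plus strand, have the STAT dimer motif in capitals, once in Socs3 and at 2 places in Cish.
Stat2: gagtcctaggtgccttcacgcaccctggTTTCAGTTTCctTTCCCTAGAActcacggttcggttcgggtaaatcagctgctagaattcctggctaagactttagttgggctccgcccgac
Stat4: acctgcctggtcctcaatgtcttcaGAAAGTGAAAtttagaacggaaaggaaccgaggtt
Socs3: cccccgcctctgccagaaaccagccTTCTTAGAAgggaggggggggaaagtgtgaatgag
Cish: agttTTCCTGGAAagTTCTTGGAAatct
A match describes letters in the window and does not show that a factor binds there.

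The values are FPKM, fragments scaled to the length of the transcript and the size of the library, as the authors deposited them. Fragment totals were estimated from genes with 1 transcript, at 18485056 in WT, 17593429 in lnc57Rik KO and 18280420 in lncGM1082 KO cells. With these totals, low values of genes with several transcripts, as all 9 members have, were mostly whole multiples of 1 fragment. The share was 93.7% in WT, 93.3% in lnc57Rik KO and 93.2% in lncGM1082 KO cells. Intervals in the text are exact 95% intervals from these fragments. They cover counting error only, and fragments are not independent molecules. To call a member higher or lower, a rule of size was used: the log2 fold, after adding 1 FPKM to both values, had to reach 1 in either direction, among the 22202 rows with a mean of at least 1 FPKM. All 9 members passed that minimum. Of 12 identity genes of the labelled cell type 11 reached 1 FPKM in each library, among them S100a9 at 2833 to 4521 FPKM, Spi1 at 110 to 120 FPKM and Itgam, the gene of CD11b, at 25.1 to 36.5 FPKM. The exception was Ly6c1, at 0.305 to 0.718 FPKM. Of the 11 compared, 9 were below WT in each knockout. In lnc57Rik KO cells 3 were called lower, where 1.53% of all rows were: Ly6g, a surface marker of granulocytic cells, at 73.4 FPKM in WT and 21.1 there, Nos2, the inducible nitric oxide synthase, at 886 and 426, and Arg1. Ly6g, at 33.9 FPKM, was also the 1 gene called lower in lncGM1082 KO cells, where 0.946% of all rows were. In a bulk sample, fewer cells of a type and less RNA per cell cannot be told apart.

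Within each library the members spanned a wide range of levels. Jak2 was the highest of the 9 in all 3 libraries and Stat4 the lowest. Jak2 mRNA stood at 108 FPKM in WT, 109 in lnc57Rik KO and 115 in lncGM1082 KO cells, above 97.1%, 97.0% and 97.4% of the Ensembl rows compared. Stat4 stood at 2.99 FPKM in WT, 6.28 in lnc57Rik KO and 3.52 in lncGM1082 KO cells, above 28.2%, 47.0% and 32.8% of those rows. The other 7 members lay between 16.8 and 68.6 FPKM.

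The order of the levels in WT was Jak2, Stat6, Jak1, Stat3, Stat2, Jak3, Stat5a, Stat5b and Stat4. The closest neighbours in it were Stat2 and Jak3, with a ratio of 1.06 (1.01 to 1.12), and Stat6 and Jak1, with a ratio of 1.07 (1.03 to 1.11). The lncGM1082 KO library had the same order except that Stat5a stood above Jak3, by a ratio of 1.09 (1.04 to 1.15). In the lnc57Rik KO library Stat2 stood above Stat3, by a ratio of 1.17 (1.12 to 1.21), while in WT it had 0.640 times the FPKM of Stat3 (0.613 to 0.667). There Jak3 and Stat5a were not told apart by counting error, with a ratio of 1.03 (0.974 to 1.08). Neighbours this close have no replicate behind their order.

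**Figure D1:**
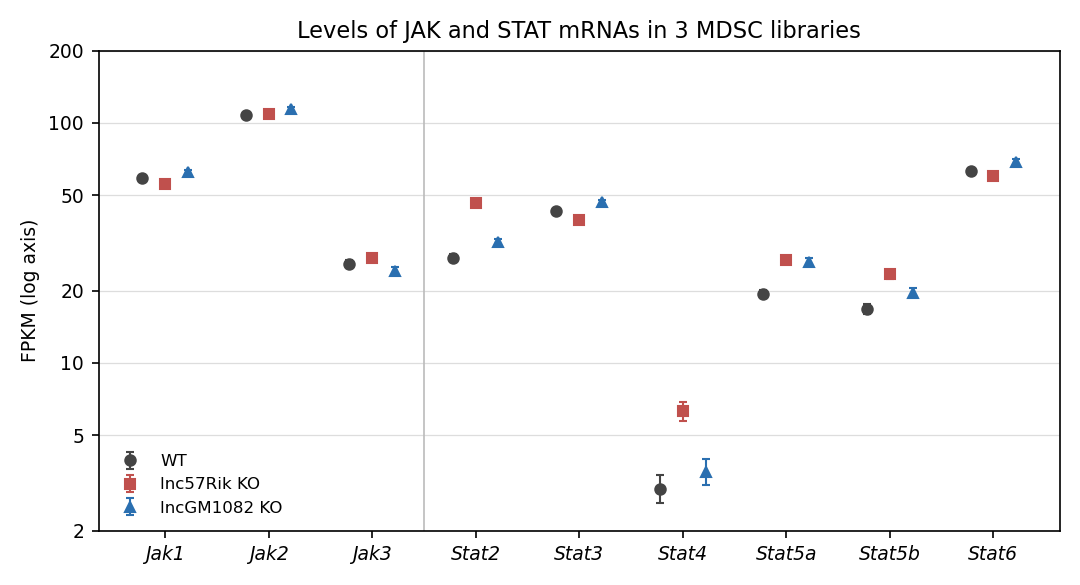
FPKM of the 3 JAK and 6 STAT mRNAs on a log axis, with 1 point per library (circles WT, squares lnc57Rik KO, triangles lncGM1082 KO) and bars for the exact 95% counting interval. The 3 points of each JAK lie close together, while those of Stat2 (27.4, 46.2 and 31.9 FPKM) and Stat4 (2.99, 6.28 and 3.52 FPKM) are spread further apart.

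By the rule of size, 0 of 9 members were called in the lnc57Rik KO library against WT, where 4.92% of all compared rows were. The same count was 0 of 9 in the lncGM1082 KO library against WT, beside 1.81% of all rows, and 0 of 9 between the knockouts, beside 4.37%. Beside such background shares, a count of 0 among so few members is not a result about the family. The median absolute log2 fold of the members was 0.11, 0.13 and 0.19 in the same order, and that of all compared rows was 0.23, 0.16 and 0.23. The comparisons against WT share the WT library, and those of a knockout share that knockout's library.

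Each JAK kinase stood at a similar level in the 3 libraries, with log2 folds between -0.18 and 0.17 over all comparisons. Jak2 lies on chromosome 19 from 29251828 to 29313080, and its log2 fold against WT was 0.01 in lnc57Rik KO and 0.08 in lncGM1082 KO cells. The ratio of 1.01 in the lnc57Rik KO library had an interval from 0.977 to 1.03, which holds 1. Rescaling the libraries by their median ratio put that fold at -0.07. Jak1, the partner of the IL-6 and interferon receptors, lies on chromosome 4 from 101152367 to 101265282. It had 59.1 FPKM in WT, 55.6 in lnc57Rik KO and 62.5 in lncGM1082 KO cells, with ratios to WT of 0.941 (0.911 to 0.972) and 1.06 (1.02 to 1.09). The lnc57Rik KO library was the lowest of the 3 and the lncGM1082 KO library the highest.

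Jak3, the kinase of the common gamma chain, lies on chromosome 8 from 71676296 to 71690575. It had 25.8 FPKM in WT, 27.5 in lnc57Rik KO and 24.1 in lncGM1082 KO cells. Its order of libraries was the reverse of that of Jak1, at ratios to WT of 1.07 (1.01 to 1.13) and 0.936 (0.885 to 0.990). Insl3, a hormone gene, lies within the Jak3 gene on the same strand and had 9.46, 5.75 and 6.76 FPKM in the order WT, lnc57Rik KO and lncGM1082 KO. How reads in shared bases were assigned was not given in the sources used here. Of the summed FPKM of the 3 kinases, Jak2 made up 56.0% in WT, 56.7% in lnc57Rik KO and 57.0% in lncGM1082 KO cells.

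Among the STATs, Stat2 and Stat4 were furthest from WT in the lnc57Rik KO library. Stat2, the interferon-specific member, lies on chromosome 10 from 128270559 to 128292849. It had 27.4 FPKM in WT, 46.2 in lnc57Rik KO and 31.9 in lncGM1082 KO cells. The lnc57Rik KO library stood well above the others, at 1.68 times WT (1.61 to 1.76), and the lncGM1082 KO library at 1.16 times WT (1.11 to 1.22). Its log2 fold of 0.73 in the lnc57Rik KO library was below the rule of size, and 10.04% of all compared rows had a larger absolute fold. Between the knockouts the log2 fold was -0.52, lower in the lncGM1082 KO library.

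Stat4 lies on chromosome 1 from 51987148 to 52107189, and its FPKM rested on 214 fragments in WT, 428 in lnc57Rik KO and 249 in lncGM1082 KO cells. The ratio to WT was 2.10 (1.78 to 2.49) in the lnc57Rik KO and 1.18 (0.976 to 1.42) in the lncGM1082 KO library, and the latter interval holds 1. The log2 fold in the lnc57Rik KO library was 0.87, the largest absolute fold of any member in any of the 3 comparisons, with 6.95% of all rows beyond it. Stat4 is a low gene, so the added 1 FPKM weighs on it: the fold was 1.05 with 0.1 FPKM added, past the rule of size, and 0.50 with 5 FPKM added. The level in every library was far below that of Stat6, at 0.0472 times in WT, 0.104 times in lnc57Rik KO and 0.0513 times in lncGM1082 KO cells.

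Stat5a and Stat5b, the STATs of GM-CSF signalling, were higher than WT in both knockout libraries, within the rule of size. Stat5a, on chromosome 11 from 100859351 to 100885169, had 19.3 FPKM in WT, 26.8 in lnc57Rik KO and 26.4 in lncGM1082 KO cells. The knockouts were close to each other, with a ratio of 0.986 (0.940 to 1.03), and stood at 1.38 times (1.31 to 1.46) and 1.36 times WT (1.30 to 1.44). Stat5b, on chromosome 11 from 100780731 to 100850724, had 16.8 FPKM in WT, 23.4 in lnc57Rik KO and 19.6 in lncGM1082 KO cells. Its ratios to WT were 1.39 (1.31 to 1.49) and 1.17 (1.09 to 1.25), so the lncGM1082 KO library lay between the others. The ratio of Stat5a to Stat5b was 1.15 (1.08 to 1.23) in WT, 1.14 (1.08 to 1.21) in the lnc57Rik KO and 1.35 (1.27 to 1.42) in the lncGM1082 KO library. The genes are close copies of each other: 608 stretches of 50 bases occur letter for letter in transcripts of both, 8.21% of the distinct stretches of Stat5a and 10.98% of those of Stat5b in GENCODE M21. Reads that fit both could be placed with either, so the split between them is uncertain.

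Stat3 and Stat6 were the most abundant STAT members in WT and had the smallest absolute folds of the STAT members against it. Stat3, the STAT of IL-6, lies on chromosome 11 from 100885098 to 100939540 and had 42.9 FPKM in WT, 39.6 in lnc57Rik KO and 46.9 in lncGM1082 KO cells. The ratios to WT were 0.923 (0.893 to 0.954) and 1.09 (1.06 to 1.13). Stat6, on chromosome 10 from 127642986 to 127660957, had 63.4, 60.2 and 68.6 FPKM in the same order of libraries, with ratios to WT of 0.950 (0.913 to 0.989) and 1.08 (1.04 to 1.13). For both genes the lnc57Rik KO library was the lowest and the lncGM1082 KO library the highest. Of the summed FPKM of the 6 STAT members, Stat3 made up 24.8% in WT, 19.6% in lnc57Rik KO and 23.8% in lncGM1082 KO cells, and Stat2 made up 15.9%, 22.8% and 16.2%.

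**Figure D2:**
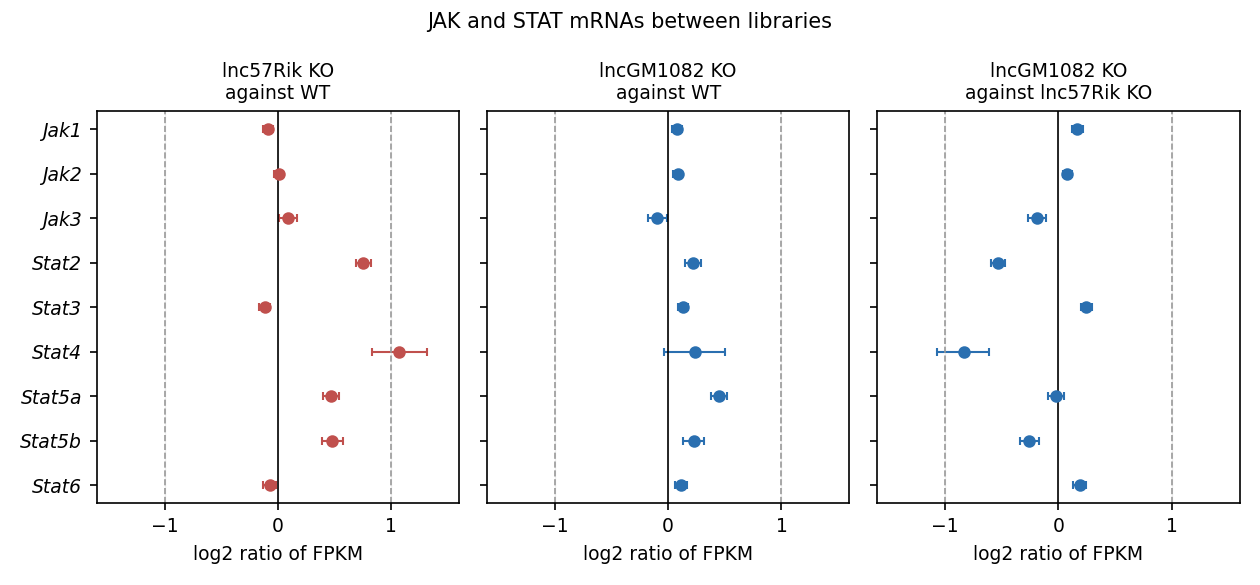
Log2 ratio of FPKM (no value added) for each JAK and STAT in the 3 comparisons, with exact 95% counting intervals, a solid line at 0 and dashed lines at -1 and 1. In the lnc57Rik KO library against WT, Stat4 (1.07), Stat2 (0.75), Stat5b (0.48) and Stat5a (0.47) lie to the right of 0 and the other members within 0.12 of it; adding 1 FPKM, as the rule of size does, puts Stat4 at 0.87.

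Tyk2, the kinase of the interferon and IL-12 receptors, is not among the 9 members and was looked at after its values were known. It had 23.6 FPKM in WT, 26.1 in lnc57Rik KO and 23.4 in lncGM1082 KO cells and did not pass the rule of size in any comparison. The member with the largest fold, Stat4, was set beside 6231 named Ensembl genes whose mean reached 5 FPKM. By the distance between pairs of log2 folds against WT, over 3 libraries, the nearest were Cbx5, a heterochromatin protein (distance 0.01), and Herpud1, a protein of the endoplasmic reticulum (0.02). Cbx5 had 4.71, 9.32 and 5.48 FPKM, and 26 of those genes lay within 0.1 of Stat4.

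Several members are neighbours in the genome. Stat5b, Stat5a and Stat3 lie side by side on chromosome 11, with 8626 bases between the first pair, and the 3′ ends of Stat5a and Stat3 overlap on opposite strands by 72 bases. Whether the counting used strand was not given in the sources used here, so reads in that overlap cannot be assigned. The log2 folds in the lnc57Rik KO library against WT were 0.46 for Stat5b, 0.45 for Stat5a and -0.11 for Stat3. The 5 compared genes beyond Stat5b had 0.21 (Ghdc), 0.16 (Rab5c), 0.44 (Hspb9), 0.17 (Kat2a) and 0.36 (Dhx58). Of these, Hspb9 was nearest to Stat5b and Stat5a in log2 fold, though not in position. It is a low gene with 1.42 FPKM in WT and 2.27 in lnc57Rik KO cells. In lncGM1082 KO cells Stat5b, Stat5a and Stat3 had 0.21, 0.43 and 0.13. Stat6 and Stat2, 609601 bases apart on chromosome 10, had -0.07 and 0.73 in the lnc57Rik KO library.

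**Figure D3:**
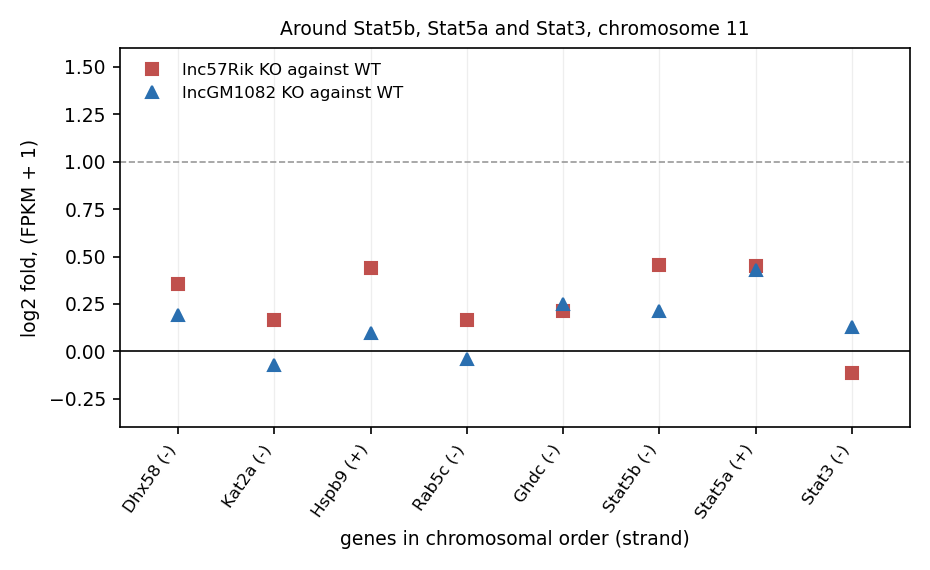
Log2 folds against WT (after adding 1 FPKM) of Ensembl genes whose mean reached 1 FPKM, in chromosomal order within 100 kb of Stat5b, Stat5a and Stat3; squares are the lnc57Rik KO and triangles the lncGM1082 KO library, 1 library each, and the dashed line marks 1. In the lnc57Rik KO library Stat5b (0.46) and Stat5a (0.45) stand above 0 and Stat3 (-0.11) below it, and none of the plotted genes reaches 1.

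Receptors that feed the kinases were divided into a myeloid and a lymphoid list, chosen with earlier results of these data known. The division is not strict, and the contrast between the lists depends on it. Of 17 compared receptors on the myeloid list, 14 were below WT in the lnc57Rik KO library. Their median log2 fold was -0.16, beside 0.07 over all rows. By the rule of size 0 of the 17 were higher (3.39% of all rows) and 1 was lower (1.53%). This was Csf3r, the G-CSF receptor of neutrophils, with 130 FPKM in WT, 63.5 in lnc57Rik KO and 119 in lncGM1082 KO cells. Its log2 fold of -1.02 was -0.98 with 5 FPKM added, which ends the call. Against WT, lncGM1082 KO cells had a median of -0.07, and 0 of 17 were higher (0.865% of all rows) or lower (0.946%), with Il6ra (-0.41) and Il13ra1 (-0.34) furthest from 0.

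The receptors for the cytokines in the medium were among them. Csf2rb, the signalling chain of the GM-CSF receptor, had 330 FPKM in WT, 302 in lnc57Rik KO and 280 in lncGM1082 KO cells. The IL-6 receptor Il6ra stood lower, at 7.10, 4.32 and 5.11 FPKM, and its signalling partner Il6st at 8.35, 5.93 and 6.86 FPKM. WT was the highest library for all 3 of these genes. The ratio of Il6ra to WT was 0.609 (0.552 to 0.671) in the lnc57Rik KO and 0.720 (0.657 to 0.788) in the lncGM1082 KO library.

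Of 7 compared receptors on the lymphoid list, 5 were above WT in the lnc57Rik KO library. By the rule of size 2 were called higher, where 3.39% of all rows were. The median log2 fold was 0.79, beside 0.07 over all rows. The called genes were Il12rb1, a chain of the IL-12 receptor that acts through Stat4, with 2.28, 6.34 and 3.09 FPKM in the order WT, lnc57Rik KO and lncGM1082 KO, and Il15ra, the IL-15 receptor, with 3.57, 8.44 and 4.44 FPKM. With 5 FPKM added neither was called, at 0.64 and 0.65. Under median ratio scaling Il15ra was not called either, at 0.98. Il12rb2, the other IL-12 receptor chain, had 6.47, 5.60 and 4.80 FPKM and was highest in WT. For lncGM1082 KO cells the median of the 7 was 0.25, with 0 called, beside 1.81% of all rows. Il7r, the IL-7 receptor, was at 0.55 and Il12rb2 at -0.37.

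The lnc57Rik KO library also held more mRNA of markers of several other cell types. More such cells and more of these mRNAs per cell cannot be told apart in a bulk sample. The part of either in the values for Stat4, Stat2 and the lymphoid receptors was not tested. All 13 compared B lineage markers were called higher than WT in the lnc57Rik KO library, where 3.39% of all rows were. The summed FPKM of the 14 markers was 13.1 in WT, 262 in lnc57Rik KO and 20.8 in lncGM1082 KO cells. None of the 14 was at 0 in any library. Of 11 compared dendritic cell markers 6 were called higher, and the 14 in the list summed to 319, 702 and 374 FPKM in the same order, with none at 0. For eosinophil, basophil and mast cell markers 6 of 10 compared were called higher, with sums over 11 genes of 310, 521 and 357 FPKM and none at 0.

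T cell markers other than Thy1 were low, and several were higher in the lnc57Rik KO library. Cd8a had 0.104 FPKM in WT and 1.16 in lnc57Rik KO cells, a ratio of 11.1 (5.13 to 28.6), and Cd4 had 0.0403 and 0.648 FPKM, a ratio of 16.1 (5.18 to 81.0) that rests on 3 fragments in WT. Cd3d had 0.447, 0.501 and 0.332 FPKM in the order WT, lnc57Rik KO and lncGM1082 KO. Cd3e had 0.0530 FPKM in WT, 0.181 in lnc57Rik KO and 0.0536 in lncGM1082 KO cells, and Cd3g was at 0 in the lncGM1082 KO library. The 10 T cell markers summed to 32.7, 37.2 and 32.8 FPKM, most of it from Thy1 at 28.0 to 29.5. In the lnc57Rik KO library 1 of 3 compared was called higher, the kinase Lck, beside 3.39% of all rows. The 8 NK cell markers summed to 13.4, 16.3 and 18.2 FPKM, most of it from Nkg7. Against WT 0 of 2 compared were called, beside 4.92% of all rows in lnc57Rik KO and 1.81% in lncGM1082 KO cells. Of the NK markers, Ncr1 was at 7.35 times WT in lnc57Rik KO cells (2.20 to 38.5, with 3 fragments in WT), Klrk1 at 4.01 times (2.28 to 7.44) and Gzmb at 1.90 times (1.33 to 2.72). Prf1 stood lower there, at 0.525 times WT (0.162 to 1.51), and Nkg7 at 1.01 times (0.813 to 1.24), and both intervals hold 1. Klrb1c was at 0 in both knockouts and Gzma in WT and the lncGM1082 KO library. Markers of the cells the culture is meant to hold were mostly lower than WT in the lnc57Rik KO library. Of these, 5 of 12 neutrophil and 4 of 11 compared monocyte and macrophage markers were called lower, beside 1.53% of all rows. The medians were -0.12 and -0.79. The lncGM1082 KO library had 10 of 12 neutrophil markers below WT, with a median of -0.62 and 2 called lower, where 0.946% of all rows were. It had 8 of 11 monocyte and macrophage markers below WT, with a median of -0.18 and 2 called lower. Their sums over 12 genes each were 11040, 10529 and 7257 FPKM for neutrophils and 3253, 2143 and 2473 FPKM for monocytes and macrophages, with none at 0. The part of these cells in the STAT and JAK values was not tested.

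Inhibitors of the pathway included the SOCS proteins, which block the kinases, the PIAS proteins, and phosphatases. None of the 20 compared was called in either knockout against WT, beside 4.92% of all rows in lnc57Rik KO and 1.81% in lncGM1082 KO. The medians were 0.04 and -0.07, beside 0.07 and 0.01 over all rows. Socs3, the feedback inhibitor of IL-6 and G-CSF receptors, was the most abundant, with 441 FPKM in WT, 260 in lnc57Rik KO and 417 in lncGM1082 KO cells. The lnc57Rik KO library was the lowest for this gene, at 0.589 times WT (0.577 to 0.602) and a log2 fold of -0.76. Socs2 had 1.81, 3.33 and 1.86 FPKM in the same order and a log2 fold of 0.62 in the lnc57Rik KO library. Cish, a target and inhibitor of Stat5 with the paired motif shown at the outset, had 34.8, 39.8 and 28.2 FPKM, with ratios to WT of 1.14 (1.10 to 1.19) and 0.810 (0.773 to 0.848). Its order of libraries differed from that of Stat5a and Stat5b, for which WT was the lowest. Cish (-0.29) and Socs1 (-0.24) were also the inhibitors furthest from 0 in lncGM1082 KO cells against WT.

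Known targets of each STAT were listed with earlier results of these data known, and 9 pathway genes stand in more than 1 list. In the lnc57Rik KO library 0 of 18 Stat3 targets were called in either direction, beside 4.92% of all rows. Of these 18, 17 were below WT, with a median log2 fold of -0.47 beside 0.07 over all rows. They included Socs3, the growth factor Vegfa with 90.6 FPKM in WT, 57.4 in lnc57Rik KO and 105 in lncGM1082 KO cells, and the iron carrier Lcn2 with 1683, 1061 and 1317 FPKM. The exception was Birc5, a gene of dividing cells, with 2.59, 6.05 and 3.17 FPKM and a log2 fold of 0.97. Several of these genes, among them S100a8, S100a9, Lcn2 and Hp, are also neutrophil genes. Among the 17 below WT, S100a9 (-0.004), Pim1 (-0.02), Myc (-0.03) and S100a8 (-0.06) lay close to 0 in the lnc57Rik KO library. Of the same 18 genes, 14 were below WT in lncGM1082 KO cells, with a median of -0.11 beside 0.01 over all rows. There 0 were called, beside 1.81% of all rows. Furthest from 0 there were Myc, with 35.6 FPKM in WT and 21.4 in that library, and S100a8, with 2718 and 1672 FPKM.

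Stat5 targets were near the all-row median in both knockouts. Of 14, 8 were above WT in the lnc57Rik KO library and 7 in the lncGM1082 KO library, with medians of 0.10 and 0.01. In either library 0 were called, beside 4.92% and 1.81% of all rows. Il2ra, the IL-2 receptor alpha chain, had 4.49, 9.21 and 5.96 FPKM in the order WT, lnc57Rik KO and lncGM1082 KO, and Ccnd2, a cyclin, had 26.5, 43.0 and 25.5 FPKM. Gadd45g (0.54) and Id1 (-0.50) were furthest from 0 in lncGM1082 KO cells. Pim1, a kinase that Stat3 and Stat5 both induce, stood at 251, 248 and 250 FPKM and was close to equal in the 3 libraries.

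Stat6 targets known from mouse macrophages split in the lnc57Rik KO library, with 4 of 15 called higher and 2 lower, beside 3.39% and 1.53% of all rows, and a median of -0.12. The higher genes were Retnla, from 0.814 FPKM in WT to 6.84, and the chemokines Ccl22, from 70.1 to 274, Ccl24, from 1.96 to 10.4, and Ccl17, from 80.2 to 186 FPKM. The lower genes were Arg1, the arginine-cleaving enzyme, from 626 to 262 FPKM, and Mgl2, a lectin, from 20.8 to 9.31 FPKM. With 5 FPKM added Mgl2 was no longer called, at -0.85. Ccl17 and Ccl22 are made by dendritic cells too, whose markers were higher in that library, and Ccl22 is also on the dendritic cell list. In the lncGM1082 KO library 0 of 15 were called, beside 1.81% of all rows. The median there was -0.14, with Egr2 (-0.86) and Mgl2 (-0.82) furthest from 0. Stat6 itself had 63.4, 60.2 and 68.6 FPKM.

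Interferon-stimulated genes, which the Stat2 complex switches on, lay above WT in the lnc57Rik KO library in 16 of 16 cases. Their median log2 fold was 0.59, beside 0.07 over all rows. Of these 2 were called higher, where 3.39% of all rows were. They were Ifit3 with 6.11, 18.1 and 6.87 FPKM in the order WT, lnc57Rik KO and lncGM1082 KO, and Ifi44 with 0.750, 3.34 and 1.53 FPKM. Ifi44 was at 0.54 with 5 FPKM added, which ends the call. Irf9, the DNA-binding partner of Stat2, had 17.9, 22.2 and 19.2 FPKM. The lncGM1082 KO library had 15 of 16 above WT, with a median of 0.20, beside 0.01 over all rows. There 0 were called, beside 1.81% of all rows. Ifi44 (0.53) and Oasl1 (0.51) were furthest from 0. Between the knockouts all 16 were lower in the lncGM1082 KO library, with a median of -0.41 and 1 called, Ifit3, where 3.07% of all rows were called lower. With 5 FPKM added Ifit3 was at -0.96 and was not called.

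Of the Stat4 targets all 5 compared were below WT in the lnc57Rik KO library, where Stat4 itself was higher. Their median was -0.18, and 0 were called, beside 4.92% of all rows. They were led by Furin, a protease, with 146 FPKM in WT, 87.5 in lnc57Rik KO and 143 in lncGM1082 KO cells. Hlx, a homeobox factor, had 39.1, 26.4 and 31.6 FPKM. The remaining 2 targets fell under the minimum mean of 1 FPKM. They were Ifng, at 0.0418, 2.41 and 0.296 FPKM, and its regulator Tbx21, at 0, 0.571 and 0.0440 FPKM, and both were highest in the lnc57Rik KO library. Ifng rested on 1, 55 and 7 fragments, with a ratio to WT of 57.8 (9.95 to 2323) in lnc57Rik KO cells. Without the minimum mean it would be called, at 1.71 against WT and -1.40 between the knockouts, so the count of 0 called Stat4 targets depends on that filter. In the lncGM1082 KO library all 5 compared were below WT, with a median of -0.20 and 0 called, beside 1.81% of all rows.

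**Figure D4:**
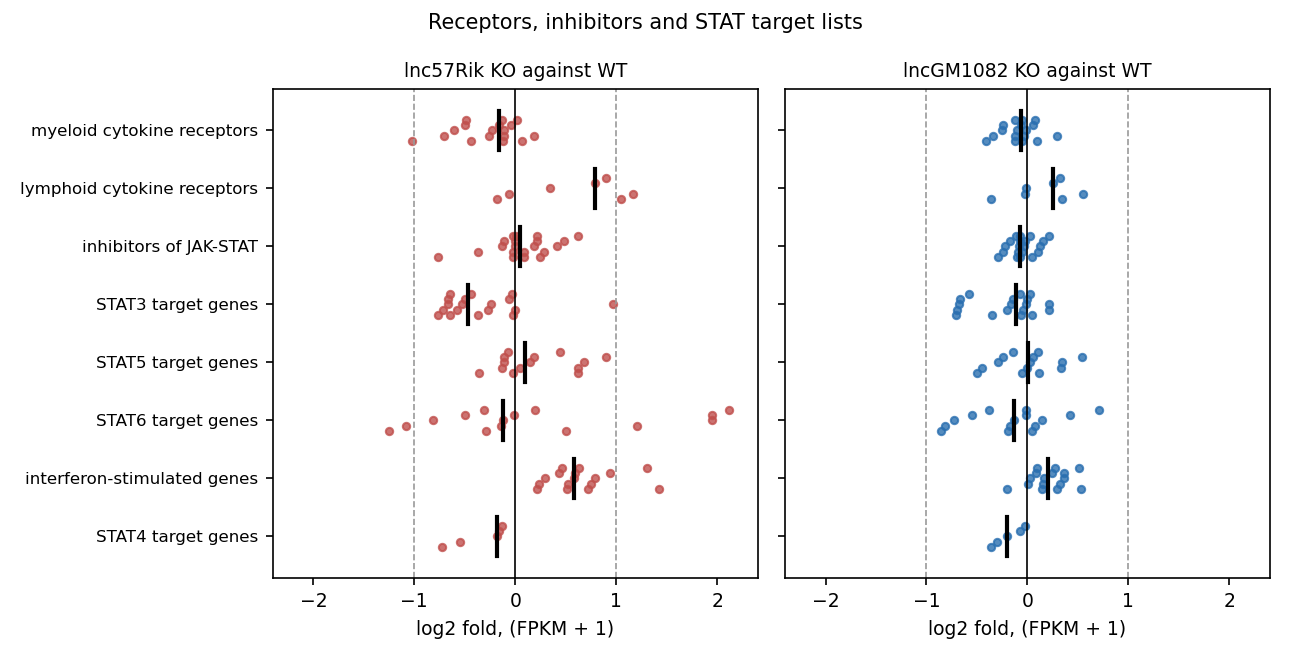
Log2 folds against WT (after adding 1 FPKM) of the compared genes of 8 lists of receptors, inhibitors and STAT targets, with 1 point per gene, black bars at the list medians and dashed lines at -1 and 1; left the lnc57Rik KO and right the lncGM1082 KO library, 1 library each. On the left the medians of the lymphoid receptors (0.79) and interferon-stimulated genes (0.59) lie above 0 and that of the Stat3 targets (-0.47) below, and on the right all 8 medians lie between -0.20 and 0.25.

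Set against each other, the knockouts differed least for Stat5a (log2 fold -0.02, lncGM1082 KO against lnc57Rik KO) and most for Stat4 (-0.69) and Stat2 (-0.52). Stat3 (0.24), Stat6 (0.19), Jak1 (0.17) and Jak2 (0.08) were higher in the lncGM1082 KO library, and Stat5b (-0.24) and Jak3 (-0.18) lower. Median ratio scaling put Stat5a at 0.04. Among the lists, 0 of 17 myeloid receptors, 7 lymphoid receptors and 20 inhibitors were called between the knockouts. Of 18 Stat3, 14 Stat5 and 5 Stat4 targets 0 were called as well, beside 4.37% of all rows. The Stat4 count leaves out Ifng (-1.40), which fell under the minimum mean. Of the Stat6 targets 1 was higher in the lncGM1082 KO library (1.31% of all rows), Arg1, and 4 were lower (3.07%), Retnla, Ccl24, Ccl17 and Ccl22. With 5 FPKM added Retnla (-0.98) and Ccl24 (-0.96) were not called.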

How the data were processed

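RNA from 3 MDSC libraries was analysed, 1 per genotype. The authors deposited FPKM per gene, with a column for each library. The submitters' processing notes name Bowtie 0.12.2 and mm9 without a role or order. The positions of all 9 members in the table are those of GENCODE M21 on GRCm38, so coordinates are given on that build. How fragments were counted, with or without strand, and what was done with multi-mapping reads were not given in the sources used here.

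Fragments were recovered from FPKM and the summed exon length of each GENCODE M21 gene. Among values below 20 fragments, 99.1% in WT came out whole within 0.05 for single-transcript genes and 93.7% for the others. The fragments of all members came out whole within 0.0211. Ratios carry exact (Clopper-Pearson) and levels exact Poisson 95% intervals; a gene whose fragments did not come out whole got none. Folds are log2 of FPKM plus a pseudocount of 1, so differences of low genes are understated. Scripts ran in Python 3.11.15 with pandas 2.3.3 and scipy 1.17.1, and were tested on simulated data.

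Named were all members and, per list, up to 4 called genes or else the 2 with the largest folds. Mgl2 and Ccl17, receptors of the culture cytokines, Lcn2, Vegfa, Pim1, Irf9, Ifng, Tbx21, Tyk2 and the marker genes were named after their values were seen. The members and lists were chosen with earlier results of these data known. Promoter letters are RefSeq's on GRCm38.p6.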

Additional observations from a re-analysis of the deposited data

How the results depend on the processing

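Under 7 alternatives, member folds kept their sign in 25 of 27 pairs of member and comparison. The exceptions were Jak2 in the lnc57Rik KO library against WT (0.01, and -0.07 under median ratio scaling) and Stat5a between the knockouts (-0.02 and 0.04). The count of members called was 0 throughout, save for 1 called higher in the lnc57Rik KO library with a pseudocount of 0.1, which was Stat4. Stat4 is a low gene on which the added value weighs, and its log2 ratio with nothing added was 1.07. With a minimum mean of 5 FPKM Stat4 is not compared. Over all rows, calls higher and lower were 752 and 340 in the lnc57Rik KO library against WT, 1397 and 722 with a pseudocount of 0.1, 179 and 46 with 5, 1195 and 694 with each library rescaled without its top 20 rows, and 234 and 122 with the minimum of 5 FPKM. In the lncGM1082 KO library they were 192 and 210, then 570 and 520, 23 and 18, 493 and 448, and 57 and 40. Between the knockouts they were 290 and 681, then 707 and 1273, 40 and 142, 695 and 1075, and 112 and 200. Counts of called list genes moved by over 1.5 times in 16 of 336 cases, most often with a pseudocount of 5 (6 cases). No called list gene changed sign. No paired analysis was possible because each genotype has 1 library. No library could be left out for the same reason. Depth limits Stat4 most, which had 214 to 428 fragments.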
